A study of Mus musculus with 125 samples.

Results

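The regions described here had peaks in endothelial libraries of both the brain and the retina of young mice. Endothelial libraries of no other organ profiled at that age had a peak in them. As given below, the retina lists also held many peaks inside neuron and photoreceptor genes. Open chromatin was mapped by ATAC-seq, in which a transposase cuts accessible DNA, and each library was deposited as its own list of peaks. Overlapping peaks of the 14 endothelial lists of P6 mice were merged into 196834 regions. A region was kept when at least 2 of the 3 P6 brain lists and at least 2 of the 3 P6 retina lists held a peak in it and no P6 endothelial list of heart, kidney, liver or lung did. This left 5007 regions, 2.54% of the merged regions. The regions were chosen by the presence and absence of called peaks in the P6 endothelial lists. Presence or absence at P6 is therefore a description and was not tested. The tests below use adult, E12 and input libraries that took no part in the choice. They contrast largely the same organs as the rule did, so the rule itself favours higher shares in brain and retina.

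The study profiled vessels of the mouse across organs and ages. In all ATAC-seq groups a low dose of tamoxifen, 0.015 mg per kg of body weight, switched on a green fluorescent reporter in vessels. Pregnant mice were injected at E10.5 for the E12 group, pups at P1 and P3 for the group labelled P6, and adults of 2 months 7 days before isolation. The protocol places the postnatal collection at P7 and that of the E12 group at E12.5, and P6 and E12 are kept as the group names. Its text names neither the promoter that drives the recombinase nor a strain or genotype, and samples without visible reporter signal were not processed. Libraries are labelled endothelial or input, the latter from nuclei of whole tissue, and the protocol text used here ends before the step that separates them. Brain and retina had 3 endothelial libraries each at P6 and heart, kidney, liver and lung 2 each. At adult age each of these 6 organs had 2, and at E12 the endothelial libraries numbered 3 for brain and 4 each for heart and trunk, with no retina. Single-cell RNA libraries of brain at E9.5 and E12.5 and of brain cortex at P8 and adult age (2 months), 1 each, give the levels of genes near the regions. Those cells were enriched with magnetic beads against CD31 (Pecam1), a surface protein of endothelium, and their labels name no tamoxifen. The labels do not say that replicates came from separate animals, so the p-values measure the spread between libraries only.

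Brain and retina are parts of the central nervous system, and their vessels form the blood-brain and blood-retina barriers. Endothelial cells there are joined by tight junctions, carry few caveolae, and take up nutrients through dedicated transporters. Wnt ligands from neural cells, received by Frizzled receptors with co-receptors such as Reck and Adgra2, act through β-catenin and Lef/Tcf factors to establish and keep these properties. Open regions near such genes include promoters and enhancers, the stretches of DNA where transcription factors bind.

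Of the promoter windows held in RefSeq (build GRCm38.p6, 250 bases before to 50 bases after a start site), 422 overlapped these regions. The 3 windows printed here were chosen because the region over each was open in all 6 P6 brain and retina endothelial libraries, and because they include a cationic amino acid transporter (Slc7a1), a thyroid hormone transporter (Slco1c1) and a lysophosphatidic acid receptor (Lpar1) whose region had no peak in whole brain or retina. All 3 hold motif matches, while the Foxl2 window, likewise under a region open in all 6 libraries, held none and is not printed. Capitals mark matches to the motifs searched, and each sequence runs 5′ to 3′ on the strand of its gene.
Slc7a1, chr5:148392766-148393065, minus strand: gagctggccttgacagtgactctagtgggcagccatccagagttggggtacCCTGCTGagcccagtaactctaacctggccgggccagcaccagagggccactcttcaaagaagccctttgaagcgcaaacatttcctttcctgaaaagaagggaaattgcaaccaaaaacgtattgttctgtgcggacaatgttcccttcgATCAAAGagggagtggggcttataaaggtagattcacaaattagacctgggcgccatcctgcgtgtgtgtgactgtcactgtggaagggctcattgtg
Slco1c1, chr6:141524104-141524403, plus strand: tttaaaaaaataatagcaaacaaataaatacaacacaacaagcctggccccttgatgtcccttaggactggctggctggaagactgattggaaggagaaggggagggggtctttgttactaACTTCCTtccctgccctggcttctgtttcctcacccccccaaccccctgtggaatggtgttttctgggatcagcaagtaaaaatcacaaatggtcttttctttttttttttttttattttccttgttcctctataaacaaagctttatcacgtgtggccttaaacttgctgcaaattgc
Lpar1, chr4:58499354-58499653, minus strand: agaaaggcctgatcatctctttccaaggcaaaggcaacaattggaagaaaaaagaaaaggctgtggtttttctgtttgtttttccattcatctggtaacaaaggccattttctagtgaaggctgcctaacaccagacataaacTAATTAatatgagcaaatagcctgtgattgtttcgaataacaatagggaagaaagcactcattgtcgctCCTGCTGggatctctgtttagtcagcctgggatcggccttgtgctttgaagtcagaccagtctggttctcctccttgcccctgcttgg

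The Slc7a1 window held a TCF/LEF match 48 bases before the start site and a ZIC match 199 bases before it, each as the reverse complement. The Slco1c1 window held an ETS match at 129 bases and the Lpar1 window a ZIC match at 38 bases before the start, both as the reverse complement, and the Lpar1 window also held a homeobox match at 107 bases. No match overlapped a match to another motif in these windows. The motifs, each read on both strands, were TCF/LEF (CTTTGAT), ETS (AGGAAGT), FOX (TGTTTAC), ZIC (CAGCAGG), SOX (ACAATGG), AP-1 (TGACTCA), bHLH (CAGATGG), OTX/CRX (GGATTA), homeobox (TAATTA) and the palindromic motif of nuclear factor I (NFI). Over all 422 windows, 13.5% held the ZIC letters, against 10.51% of all 32851 windows of that length. The TCF/LEF letters stood in 4.74% against 3.73%, and the bHLH letters in 6.16% against 5.30%. The ETS letters were rarer, in 4.50% against 9.35%, as were AP-1, in 2.37% against 5.20%, and SOX, in 1.66% against 3.66%. Of the 12 windows over regions without an input peak 3 held the ETS, 4 the ZIC and 2 the TCF/LEF letters, too few to compare. The remaining shares were 3.08% against 3.65% for FOX, 6.64% against 7.06% for OTX/CRX, 4.50% against 5.29% for homeobox and 0% against 0.0365% for NFI. The windows over these regions were richer in G and C, with a median of 57.0% against 52.7%, and the part of base composition in these shares was not tested. A match is a run of letters and does not show that a factor is bound.

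The 66 ATAC-seq lists held 19464 to 144197 peaks from 10.1 to 59.1 M (mega) tags, with 27160 to 92863 peaks in the P6 brain and retina endothelial lists and 43882 to 76326 in those of the other organs. Every P6 brain and retina endothelial list had a peak in each of 18 general endothelial genes. Peaks inside these genes numbered 2.11 to 9.83 per peak inside neuron genes in the brain lists and 1.12 to 1.37 in the retina lists, against 4.78 to 8.06 in the P6 endothelial lists of other organs and 0.328 to 0.647 in the P6 brain and retina inputs. The retina endothelial lists also held 37, 39 and 40 peaks inside photoreceptor genes, and the part of other nuclei in the shared regions was not tested. Some libraries stood apart. P6 brain endothelial 1 had the fewest peaks of the P6 endothelial lists, 27160, and shared most with P6 kidney endothelial 2 (Jaccard index, the shared over the joint number of regions, 0.411), against 0.296 and 0.325 with the other brain lists. The series text says that signal tracks of P6 brain endothelial 1 and 2 were later replaced, and whether this touched the peak lists used here is not given in the sources used here. The library labelled P6 retina input 2 was most like P6 brain input 2 (0.731) and less like the other retina inputs (0.369 and 0.355, which reached 0.665 with each other). That library had a peak in 60.6% of brain-only and 18.5% of retina-only regions, against 6.51 to 13.2% and 79.8 to 85.4% in the other 2 retina inputs. It held 16 peaks inside photoreceptor genes, against 28 and 31 in those 2 and 9 to 13 in the brain inputs. The division by input peaks and the tests that rest on it are therefore given with and without it, while counts of genes near regions without an input peak are given only with it.

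Brain and retina shared more such private regions than any other pair of organs under the same rule. The next pair was brain and heart with 860, followed by heart and liver with 826 and heart and lung with 776, and the lowest was brain and kidney with 59. Of the 46498 regions that reached 2 libraries in both brain and retina, 10.8% had no peak in any endothelial list of another organ, and the highest share among the other 14 pairs was 2.43%, for heart and liver. Brain and retina had 3 libraries each and the other organs 2, so the counts of the pairs are not on equal terms.

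**Figure D1:**
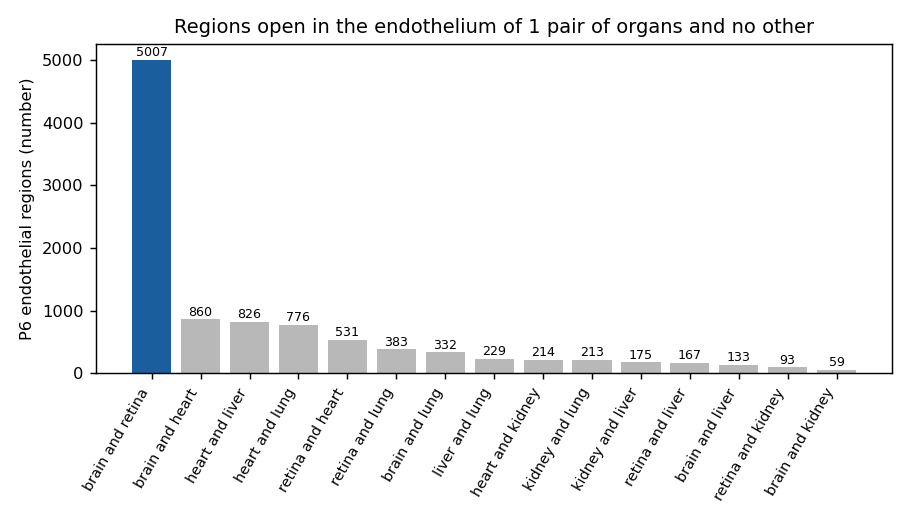
Number of P6 regions open in at least 2 endothelial libraries of each of 2 organs and in no endothelial library of the other 4, 1 bar per pair. The bar for brain and retina reaches 5007, and the other 14 pairs lie between 59 and 860.

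Among the 5007 regions, 824 (16.5%) had a peak in all 6 libraries, 2951 (58.9%) in 2 brain and 3 retina libraries, 1082 (21.6%) in 2 of each and 150 in 3 brain and 2 retina libraries. In 3986 of them (79.6%) the brain peaks came from libraries 2 and 3 and were missing from P6 brain endothelial 1. Chosen without P6 brain endothelial 2 or without 3, so that library 1 had to hold the peak, the regions numbered 1010 and 986. The median width was 563 bases, against 432 over all merged regions. Just outside the rule lay 4081 regions with a peak in 1 brain library and at least 2 of retina, 1374 with at least 2 of brain and 1 of retina, and 1809 that fulfilled both counts but also had a peak in 1 library of another organ.

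The regions lay somewhat farther from gene ends than merged regions at large, which was not tested. Their median distance to the nearest end of a protein-coding gene was 30.6 kb, against 24.6 kb over all merged regions. Of the regions 7.21% lay within 1 kb of one, against 9.11%, and 55.4% lay in a gene body, against 55.9%. They were spread over 3349 nearest genes.

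Whole-tissue nuclei of the same organs were open at most of these regions. In 3522 of them (70.3%) a P6 brain input and a P6 retina input both had a peak, in 195 only a brain input, and in 313 only a retina input. The other 977 (19.5%) had no peak in any of these 6 inputs, where 40.9% of all merged regions had none. All 6 inputs had a peak in 1899 (37.9%). No P6 input of any of the 6 organs had one in 718 (14.3%), against 20% of all merged regions. When the library labelled P6 retina input 2 was left out, 1077 regions (21.5%) had no input peak, 644 had one in brain input only and 3073 (61.4%) in both. The regions without an input peak were a little narrower (median 512 bases) and lay within 1 kb of a gene end in 3.28%, against 8.16% of those with one.

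Inputs of other organs were open at these regions less often. The P6 inputs of brain covered 53.1, 69.3 and 60.5% of them and those labelled retina 63.4, 71.1 and 59.6%. The 10 P6 inputs of heart, kidney, liver and lung covered 5.47 to 37.0%, and no value overlapped those of brain and retina. Over all merged regions the brain and retina inputs covered 29.1 to 38.6% and the other inputs 14.5 to 40.5%. P6 heart input 1 covered the shared regions as often as all merged regions (37.0 and 37.1%). The means were 62.8% ± 6.66 (SD, n = 6) and 24.4% ± 11.97 (n = 10), a difference of 38.4 percentage points (exact 2-sided permutation test over libraries, p = 0.000125, the smallest of 8008 splits, 0.000999 after Benjamini-Hochberg adjustment over the 8 tests made). On a log2 scale relative to all merged regions the difference was 1.34 (p = 0.000125, exact). Without the library labelled P6 retina input 2 it was 36.8 percentage points, and with regions chosen without P6 brain endothelial 2 or 3 it was 23.3 and 24.2. Over all merged regions the adult inputs covered 33.2% for brain, 15.4 and 33.3% for retina and 8.72 to 29.5% for the other organs. Of the shared regions the 1 adult brain input covered 59.4% and the 2 adult retina inputs 15.3 and 54.3%. The other 7 adult inputs covered 3.10 to 15.98% of them, so that these groups overlapped. That difference, 35.2 percentage points (exact 2-sided permutation test, p = 0.0167, adjusted 0.0167), lost the threshold without adult brain input 1 (27.0 percentage points, p = 0.0556, exact) or without adult retina input 2 (29.5 percentage points, p = 0.0556, exact), and was 15.0 and 15.5 in regions chosen without P6 brain endothelial 2 or 3.

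In adult mice many of the regions again had a peak in endothelial libraries of brain and retina, and nearly none in those of other organs. The adult brain endothelial libraries had a peak in 29.9 and 36.8% of them and the adult retina libraries in 26.2 and 27.8%. The 8 libraries of heart, kidney, liver and lung ranged from 0 to 1.48%, with no overlap. The means were 30.2% ± 4.66 (SD, n = 4) and 0.567% ± 0.496 (n = 8), a difference of 29.6 percentage points (exact 2-sided permutation test over libraries, p = 0.00202, the smallest of 495 splits, adjusted 0.00404). Over all merged regions the adult brain and retina lists covered 18.6 to 21.3% and the other adult lists 9.36 to 22.3%. All merged regions include those with P6 peaks in the other organs, which the rule left out of the shared regions. The rule thus favours low adult shares in those organs, and its part in the difference was not tested. With the 6 organ means as the units the difference stayed at 29.6 percentage points, and its p, 0.0667, was the smallest that 15 splits allow. The names of the aligned reads in the list headers differ between organs, with 1 style for adult brain and another for adult retina endothelium that no adult endothelial list of another organ carries, so read processing and organ cannot be told apart. At P6, P6 brain endothelial 1 and 2 share a style with the 3 retina endothelial lists and with no endothelial list of another organ. The part of this in the choice of regions was not tested. The styles also differ between E12 brain and E12 heart or trunk endothelium, and between brain or retina inputs and inputs of other organs. Read processing and organ cannot be told apart there either.

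**Figure D2:**
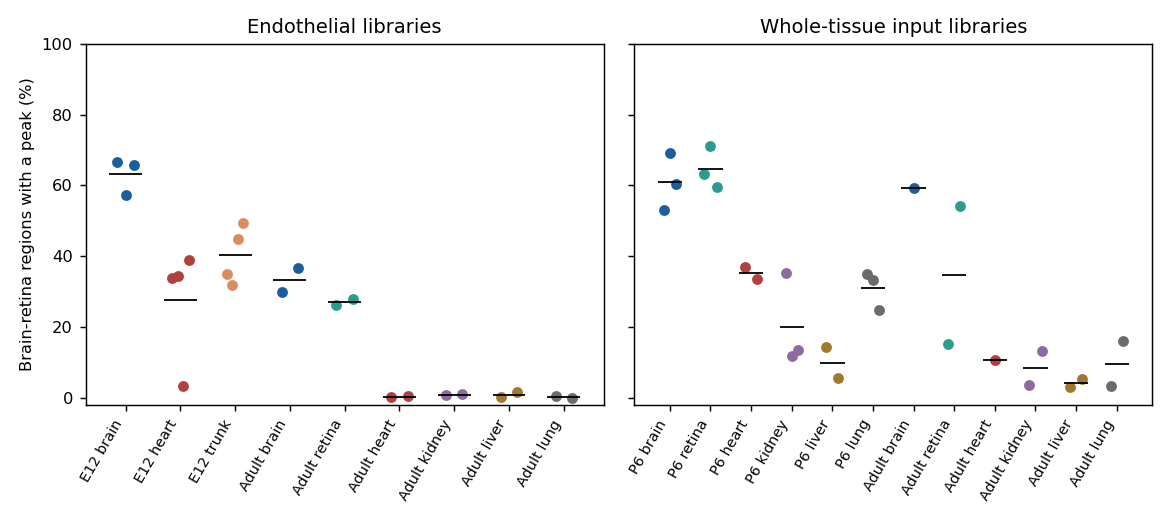
Percent of the 5007 regions that held a peak in each endothelial and input library outside the rule, 1 point per library, by organ and age. Adult brain and retina endothelial libraries lie between 26.2 and 36.8% and the other adult endothelial libraries between 0 and 1.48%, while E12 brain lies between 57.4 and 66.6%.

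Persistence was partial. Both adult brain libraries had a peak in 1304 regions (26.0%), where 16.5% of all merged regions had one in both. Both adult retina libraries had one in 922 (18.4%), near the 17.2% of all merged regions. For regions open in brain, retina and also elsewhere at P6 these shares were higher, 59.8 and 54.9%. Brain-only regions had a peak in both adult brain libraries in 26.2%, and retina-only regions in both adult retina libraries in 27.8%. Lasting into adult lists was thus no more frequent in the shared regions than in these classes. All 4 adult lists had a peak in 342 (6.83%), below the 9.93% of all merged regions. All 4 had a peak, and no adult endothelial library of another organ did, in 317 regions (6.33%), against 0.701% of all merged regions. Of the 7906 regions open at P6 in brain and not in retina, 15 had this adult pattern. Of the 21151 open in retina and not in brain, 5 had it. These classes were chosen for no P6 peak in the other organ, so such low counts are partly set by that choice. In 2126 of the shared regions (42.5%) no adult brain or retina endothelial list had a peak, against 66.3% of all merged regions. An adult library of another organ had a peak in 174 (3.48%), against 32.6%. Among brain-only and retina-only regions, which likewise had no P6 peak in those organs, the shares were 2.47 and 0.804%. The 824 regions present in all 6 P6 libraries were found on average in 59.95% by an adult brain library and in 34.8% by an adult retina library.

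Most of the regions already had a peak in brain endothelial libraries at E12, a stage at which no retina was profiled. Most were open in whole E12 brain as well. The E12 inputs, 1 each, covered 66.5% for brain, 49.2% for heart and 48.9% for trunk, against 40.6, 42.7 and 31.8% of all merged regions. The E12 brain endothelial libraries had a peak in 66.6, 57.4 and 65.9% of the shared regions. Heart libraries had one in 33.9, 34.4, 3.42 and 38.8% and trunk libraries in 35.0, 32.0, 44.98 and 49.4%, all below the lowest brain value. The means were 63.3% ± 5.12 (SD, n = 3) and 33.98% ± 13.7 (n = 8), a difference of 29.3 percentage points (exact 2-sided permutation test, p = 0.00606, the smallest of 165 splits, adjusted 0.00693). The E12 brain lists also covered more of all merged regions, 43.3 to 45.9% against 15.7 to 45.6%. On a log2 scale relative to that coverage the difference was 0.85 and did not pass (p = 0.103, exact). All 3 brain libraries were of 1 organ and the 8 others of 2, so organ means could not reach the threshold. At least 2 of the 3 E12 brain libraries had a peak in 3236 regions (64.6%), where 44.9% of all merged regions did, against 19.0% of the brain-only and 12.3% of the retina-only regions. Among the 41491 regions open in both organs and also elsewhere at P6 the share was 94.9%. Of the shared regions 521 (10.4%) met this with no peak in any E12 heart or trunk endothelial list, against 2.46% of all merged regions. At least 2 E12 brain libraries and both adult brain libraries were open at 782 (15.6%, against 13.6%).

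Regions without an input peak were covered more often than those with one in E12 brain and less often in adult brain and retina. At E12 the brain endothelial libraries had a peak in 75.03, 76.0 and 82.4% of the 977 regions without an input peak, against 64.6, 52.9 and 61.9% of the 4030 with one. Heart and trunk libraries covered 2.15 to 51.8% of the 977. Of all merged regions without an input peak the brain libraries covered 32.6, 40.4 and 38.5% and heart and trunk 7.79 to 39.6%. The brain mean of 77.8% ± 3.99 (SD, n = 3) was 50.2 percentage points above theirs of 27.6% ± 15.6 (n = 8; exact 2-sided permutation test, p = 0.00606, adjusted 0.00693). The share without an input peak minus the share with one was 10.46, 23.2 and 20.5 percentage points in the brain libraries and -19.3 to 2.96 in heart and trunk, a difference of 25.9 in the means (exact 2-sided permutation test, p = 0.00606, adjusted 0.00693). Chosen without P6 brain endothelial 2 or 3, the regions gave 15.4 and 14.2. These E12 comparisons by input peak were added after the data had been seen. They too set brain alone against heart and trunk, so organ means could not reach the threshold.

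At adult age the order was the opposite one, as it was over all merged regions. Of all merged regions without an input peak the adult brain libraries covered 4.92 and 6.83% and the adult retina libraries 4.11 and 2.36%, against 18.6, 21.3, 20.9 and 21.3% of all merged regions. Brain-only regions also had a peak in both adult brain libraries less often without an input peak (15.0%) than in all (26.2%). The adult brain libraries had a peak in 17.8 and 27.0% of the regions without an input peak, and the adult retina libraries in 17.3 and 4.81%. The other organs' libraries had one in 0 to 1.02%, so the groups did not overlap. Their means were 16.7% ± 9.12 (SD, n = 4) and 0.499% ± 0.356 (n = 8), a difference of 16.2 percentage points (exact 2-sided permutation test, p = 0.00202, adjusted 0.00404), or 25.9 and 26.9 in regions chosen without P6 brain endothelial 2 or 3. The regions with an input peak were covered more often in all 4 adult libraries, 32.8 and 39.2% in brain and 28.4 and 33.4% in retina. The difference between the subsets was -28.6 to -11.1 percentage points in brain and retina. In the other organs it was -0.565 to 0.310, where coverage near 0 leaves no room for a difference, so no test between organs is read from it. No adult brain or retina library had a peak in 67.3% of the regions without an input peak and in 36.4% of those with one. Adult retina endothelial 2, which gave the lowest value of 4.81%, had 39 peaks inside general endothelial genes and 51 inside neuron genes, against 69 and 31 in adult retina endothelial 1 and 71 with 8 or 14 in adult brain. The part of other cells' nuclei in these shares was not tested. Without the library labelled P6 retina input 2, the adult difference between groups for regions without an input peak was 17.3 percentage points and the E12 one 49.8. The differences between the subsets were -15.6 and 26.2, of which the adult one is again not read as a contrast of organs.

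Genes of the barrier program, and markers of several other cell types, lay near these regions more often than genes at large. Of 76 genes fixed in 7 lists, 41 (53.9%) had a region within 50 kb of the gene body, against 24.9% of 21887 protein-coding genes. The 76 include caveolar genes and Plvap, a gene of leaky capillaries that is also in the list of peripheral endothelium. Several marker lists of other cells had shares as high or higher, such as 6 of 8 genes for neural progenitors, 5 of 7 for astrocytes and Müller glia and 5 of 8 for pericytes. For regions without an input peak the share over all protein-coding genes was 6.06%, and for those with one 20.7%. These lists were chosen with earlier results of the same data in view, genes differ in length, and no test was made. A region within 50 kb can lie nearer to another gene, as did all those counted for Slc38a5, Slc7a5, Esam, Marveld2, Tbx1 and Zic2.

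**Figure D3:**
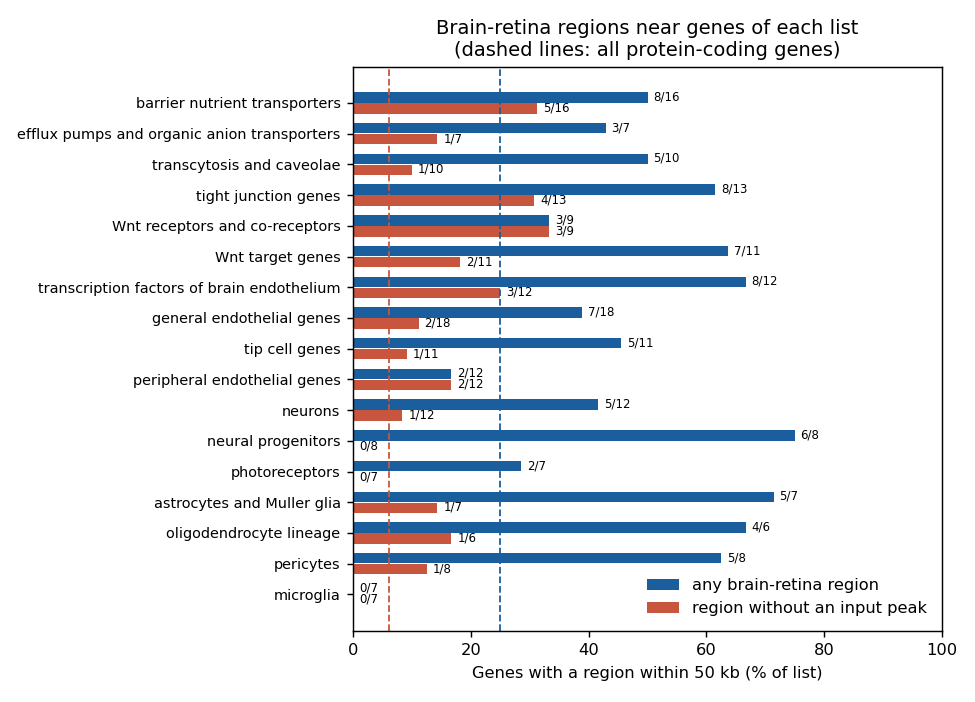
Percent of the genes of each list with a region within 50 kb, for all 5007 regions and for those without an input peak, beside the share over all protein-coding genes (24.9% and 6.06%). Lists of barrier genes, general endothelial genes and markers of other cells are shown.

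Among nutrient transporters 8 of 16 had a region within 50 kb, and 5 of them had one without an input peak. These were Slc7a1, Slc38a3, Slc38a5, Slc5a6, Slc7a5, Slc2a1, Slc19a3 and Slc39a10. Slc7a1 imports arginine and lysine. The region over its promoter, chr5:148392690-148393534, had folds over local background, the ratio given in the authors' lists, of 4.42, 4.27 and 5.18 in P6 brain and 4.82, 4.61 and 5.21 in P6 retina endothelium. The 3 brain inputs had a peak there (3.34, 4.23 and 2.96), and of the retina inputs only the library labelled P6 retina input 2 (3.47). All 4 adult brain and retina endothelial libraries kept the peak, with folds of 4.43, 3.70, 5.48 and 3.05. All 3 E12 brain endothelial libraries already had it, as had 3 of the E12 heart and trunk endothelial libraries. A further region inside the gene, chr5:148377044-148377855, was open in all 6 P6 libraries (2.73 to 4.15) and in the 3 E12 brain libraries. It was also open in 3 of the E12 heart and trunk endothelial libraries. It had no peak in any P6 brain or retina input or any of the 4 adult libraries. At Slc7a1, 1 region was thus called in all 4 adult lists and 1 in none of them.

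Slc38a5, a glutamine transporter, had a pair of regions without input peaks at 10.2 and 13.1 kb from the gene. The nearest gene of both was Ftsj1. The region nearer to Slc38a5, chrX:8260689-8261183, had folds of 3.63, 3.52 and 4.23 in P6 brain and 4.05, 3.46 and 3.86 in P6 retina. It remained in 1 adult brain list and in no adult retina list. Slc5a6, which carries biotin and pantothenate, also had a pair without input peaks, at 1.12 and 2.69 kb, and no adult brain or retina list held either. The region inside Slc19a3, a thiamine transporter, was chr1:83020115-83021272, with folds of 4.02, 4.87 and 6.07 in brain and 6.39, 6.84 and 6.43 in retina and a peak in all 4 adult lists. Among the 6 brain and retina inputs only P6 brain input 2 (3.68) and the library labelled P6 retina input 2 (2.91) had a peak. Of the P6 inputs of other organs 3 had a peak there, as had 6 of the E12 heart and trunk endothelial lists.

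Of 7 efflux pumps and organic anion transporters 3 had a region, namely Slco1c1, Slco1a4 and Abcc4. Slco1c1 carries thyroxine. Its promoter region, chr6:141523842-141524594, had folds of 5.50, 5.65 and 5.83 in P6 brain and 6.91, 5.19 and 6.07 in P6 retina endothelium, and 4.82, 3.82, 5.54 and 3.47 in the adult lists. No retina input had a peak there except the library labelled P6 retina input 2 (4.31), and brain inputs 2 and 3 did (3.57 and 2.77). At E12 all 3 brain endothelial libraries had a peak there, and so had 7 of the heart and trunk endothelial libraries. Abcc4, an organic anion exporter, had a pair of regions inside the gene without an input peak.

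Tight junction genes had a region in 8 of 13 cases, among them Cldn5, Ocln, Tjp1, Cgn, Cgnl1, Esam and Marveld2. Cldn5 encodes the main claudin of the barrier. The region 31.7 kb from it, chr16:18744620-18745195, had folds of 5.73, 6.73 and 7.63 in P6 brain and 7.84, 6.89 and 6.88 in P6 retina, was kept in all 4 adult lists, and had an input peak only in brain input 2 (3.28) and the library labelled P6 retina input 2 (3.29). Ocln, a membrane protein of the junction, had a region inside the gene at chr13:100548335-100548771 with no input peak, open in 5 of the 6 P6 libraries (3.15 to 4.19) and in all 4 adult ones (2.64 to 3.76). Tjp1, a scaffold that ties junction proteins to actin, had 5 regions within 50 kb. The region with the highest folds, chr7:65576657-65577585, at 48.8 kb, had folds of 7.55, 10.2 and 8.71 in P6 brain and 7.95, 8.21 and 8.33 in P6 retina endothelium. It was also open in all 6 P6 brain and retina inputs (3.82 to 8.07) and in no P6 input of another organ. At E12 it had a peak in all 3 brain endothelial lists and in 6 of the heart and trunk endothelial lists. Of the 5 regions, 2 had no P6 brain or retina input peak, and both of these had a peak in the E12 brain input (3.72 and 2.91).

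Among 10 genes of transcytosis and caveolae 5 had a region (Mfsd2a, Tfrc, Lrp8, Insr and Plvap). Mfsd2a is a lipid transporter that keeps transcytosis low. A region 22.3 kb from it, chr4:122983462-122983910, had folds of 3.51, 3.18 and 4.14 in brain and 4.45, 3.77 and 4.05 in retina, stayed in all 4 adult lists and had an input peak in brain input 2 alone (2.18). That region lay nearer to another gene. The nearer region of Mfsd2a at 1.91 kb, chr4:122944331-122944937, was in no adult brain or retina list. Tfrc, the transferrin receptor, had 3 regions, of which chr16:32567219-32567887 had folds of 3.99 to 6.33 in the 6 libraries. Plvap, which forms the diaphragms of leaky capillaries, also had 1, chr8:71500609-71501074, open in 4 of the 6 P6 libraries (2.60 to 4.48) without an input peak.

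The Wnt receptor side was covered by 3 of 9 genes, Reck, Adgra2 and Fzd6, each with regions that lacked an input peak. Reck, the co-receptor for Wnt7 ligands, had a pair of regions inside the gene. At chr4:43919533-43920145 the folds were 3.71, 5.53 and 4.93 in P6 brain and 5.56, 5.56 and 5.14 in P6 retina. That region was open in all 4 adult lists (2.94 to 4.60) and all 3 E12 brain lists (4.13 to 5.96), and in no E12 heart or trunk list. Its neighbour, chr4:43918253-43918831, had folds of 3.71, 3.57 and 4.41 in P6 brain and 4.23, 5.67 and 3.86 in P6 retina, below the first region in 4 of the 6 lists, and was found in none of these adult or E12 brain lists. The region 1.29 kb from Adgra2, which pairs with Reck, was chr8:27083875-27084228, with folds of 2.28 to 3.79 in 5 of the 6 P6 libraries.

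Wnt target genes had a region in 7 of 11 cases (Apcdd1, Axin2, Lef1, Nkd1, Rnf43, Tnfrsf19 and Znrf3). Lef1, a Wnt effector, was the nearest gene of 7 regions, 2 of them without an input peak. The 3 within 50 kb lay inside the gene, and each had a peak in at least 1 input. Of these chr3:131137092-131137623 had folds of 5.12 and 4.15 in brain libraries 2 and 3 and 4.09, 3.78 and 3.16 in retina, with peaks in all 3 retina inputs and no brain input. Tnfrsf19, a receptor gene induced by Wnt signalling, had 4 regions, of which chr14:60984787-60985442 was open in all 6 P6 (3.88 to 5.80) and all 4 adult lists (3.75 to 4.96). Apcdd1, a Wnt inhibitor, had 3, of which 2 had no input peak.

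Transcription factors of brain endothelium had a region in 8 of 12 cases, among them Foxf2, Foxl2, Lef1, Zic2, Mecom, Ebf1 and Tbx1. The forkhead gene Foxf2 had 1 without an input peak at 33.6 kb, chr13:31664996-31665562, with folds of 4.01, 4.36 and 6.79 in P6 brain and 7.32, 5.11 and 6.06 in P6 retina, and a peak in 3 of the 4 adult lists. Zic2, a zinc finger gene, had 3 regions, of which chr14:122490496-122491386, inside the neighbouring gene Pcca, had folds of 3.74, 3.33 and 3.30 in P6 brain and 4.65, 4.34 and 4.40 in P6 retina, and a peak in 5 of the 6 inputs and all 4 adult lists.

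The general endothelial list had a region near 7 of 18 genes, among them Kdr (vascular endothelial growth factor receptor) and Erg (an ETS factor), each with 1 region lacking an input peak. Tip cell genes had one near 5 of 11 and genes of peripheral endothelium near 2 of 12, Plvap and Stab2. Markers of other cells were near regions as well. The counts were 5 of 12 for neurons, 6 of 8 for neural progenitors, 2 of 7 for photoreceptors, 5 of 7 for astrocytes and Müller glia, 4 of 6 for the oligodendrocyte lineage, 5 of 8 for pericytes and 0 of 7 for microglia. Without an input peak these fell to 1, 0, 0, 1, 1, 1 and 0 genes. A region without an input peak was kept by 19 of the 76 barrier genes (25.0%) and 2 of the 18 general endothelial genes. So it was by 2 of the 12 peripheral endothelial genes, of which Plvap is also among the 19. The inputs hold nuclei of the other cells, so a fall near their markers largely follows from leaving out input peaks. The part of nuclei of other cells in the regions with input peaks was not tested.

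A fixed rule picked 10 regions among the 27 without an input peak that were open in all 4 adult brain and retina lists and no other adult endothelial list, by the strength of their weakest P6 peak within its library. The first by this rule lay inside Sgms2, a sphingomyelin synthase, at chr3:131469526-131470019, with folds of 4.63, 5.09 and 7.07 in P6 brain, 6.60, 5.34 and 6.14 in P6 retina and 4.39, 5.28, 6.07 and 3.92 in the adult lists. At E12 the Sgms2 region had a peak in all 3 brain lists and in 5 heart or trunk endothelial lists. The next, chr9:120769862-120770565, had Ctnnb1, the gene of β-catenin, as its nearest gene at 163 kb, with folds of 4.60 to 6.62 at P6. It had a peak in all 3 E12 brain lists and in 1 E12 heart or trunk endothelial list. The region 11.7 kb from Itm2a, a membrane protein gene, was chrX:107414728-107415438, with folds of 4.16, 5.37 and 5.92 in brain and 6.17, 5.36 and 6.17 in retina. The region inside Magi2, chr5:20315765-20316342, had folds of 4.06 to 5.21 in 5 P6 libraries and 4.12 to 5.67 in the adult ones and no peak in E12 brain. Others of the 10 lay nearest to Myoz2, Gpr155, Map3k1, Smox and Spry1. By the same rule among regions open in all 6 inputs, the first 3 were the Tjp1 region above, chr1:5069947-5070764 beside Rgs20, a regulator of G protein signalling, and chr8:55034085-55035080 inside Gpm6a, a neuronal membrane glycoprotein. The Gpm6a region had folds of 6.34 and 7.94 in P6 brain libraries 3 and 2, 7.42 to 7.52 in P6 retina endothelium and 6.75 to 9.53 in the inputs.

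Without an input peak, 725 of the 842 nearest genes had a single region, and the most were 4, for Gm826 and for Pcca, a mitochondrial carboxylase subunit. Adgrl3, Akap7, Camta1, Focad, Ism1, Map7, Mast4 and Mctp2 followed with 3 each, as had 6 further genes that came later in the alphabet. With a peak in both inputs the leaders were Ntm, a neuronal adhesion molecule, with 10, and Celf4, Robo1 and the neural progenitor factor Sox2 with 7 each. Gabbr2, Grid1, Magi2, Myt1l and Tns1 had 6 and Bach2 5. These genes were nearest to many merged regions of any kind, such as 104 for Ntm, 129 for Celf4 and 103 for Robo1, and Robo1, Grid1, Magi2 and Bach2 were also nearest to 1 or 2 shared regions without an input peak.

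The level of the nearest genes was read in the P8 brain cortex library. Of its 7305 barcodes 3935 carried UMIs of at least 3 of 8 endothelial genes and of none of 12 markers of other cells, with a median of 6262 UMI. A further 436 had markers of other cells and fewer than 3 of the endothelial genes, with a median of 1136 UMI. The libraries had at most 50 barcodes in common. Of the 810 matched nearest genes of regions without an input peak, 481 (59.4%) reached 10 CPM (UMIs of a gene scaled to 1 common library total) in the endothelial barcodes, against 37.3% of 19898 protein-coding genes. For regions with a peak in both inputs the share was 37.1% (901 of 2430). For brain-only and retina-only regions without an input peak it was 44.7 and 50.5%. A level at least 2-fold above that in the other barcodes was found for 163 (20.1%) of the 810 and for 243 (10.0%) of the 2430, against 7.68% of protein-coding genes. At least 2-fold lower were 19.9% of the 810 and 33.8% of the 2430, against 17.5% of protein-coding genes. Over all barcodes 487 of the 810 (60.1%) reached 10 CPM, against 38.2% of protein-coding genes. The endothelial barcodes gave 34373519 of the 67287926 UMI of that pool. It therefore cannot show whether the share is particular to endothelial barcodes. With 1 library there is no test, and free RNA in droplets adds counts of abundant genes to all barcodes.

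**Figure D4:**
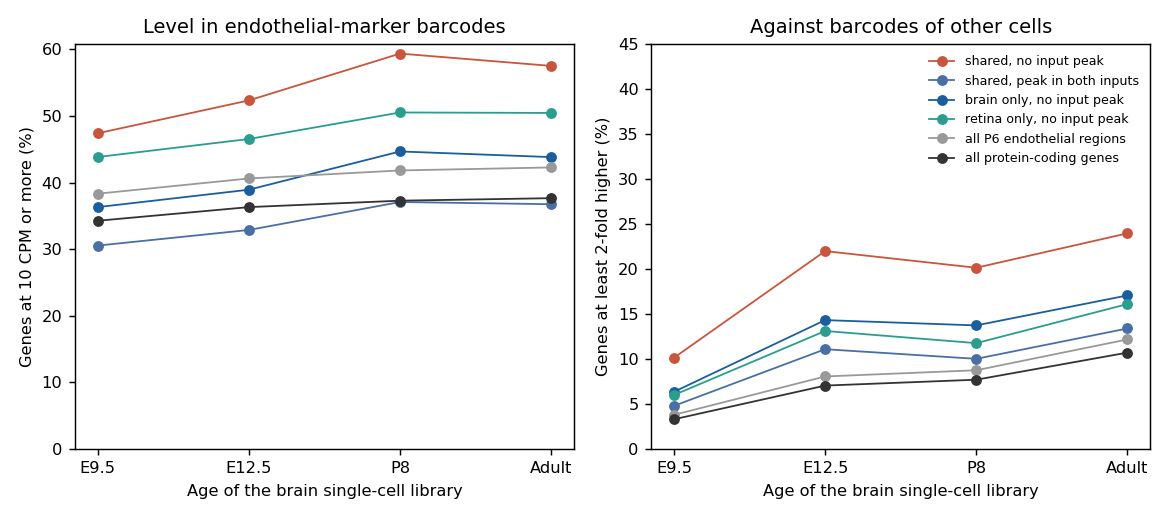
Percent of nearest genes with a level at least 2-fold higher in endothelial-marker than in other-cell barcodes of the brain single-cell libraries, by age and by set of regions. At P8 the share is 20.1% for genes nearest to regions without an input peak and 10.0% for those with a peak in both inputs.

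Genes described above gave these levels in P8 endothelial barcodes, with exact Poisson intervals (95%) that cover counting error only. Slc7a1 stood at 779 CPM (769 to 788), against 37.2 (27.2 to 49.8) in the other barcodes, and at 21.3, 205 and 937 CPM in endothelial barcodes of E9.5, E12.5 and adult brain. Slco1c1 stood at 1642 CPM (1629 to 1656) against 196 (172 to 223). Mfsd2a reached 829.5 CPM (820 to 839) against 55.4 (43.0 to 70.4). Each of these was higher in the endothelial barcodes at P8 by more than its counting error.

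Some nearest genes had little RNA there. Lpar1, whose promoter is printed above, stood at 2.56 CPM in P8 endothelial and 26.5 CPM in other barcodes. Reck, with its 2 regions, stood at 7.36 CPM (6.48 to 8.33) in P8 endothelial and 14.1 (8.19 to 22.5) in other barcodes, intervals that overlapped, and at 43.5 CPM (39.1 to 48.3) in adult endothelial barcodes. Plvap was at 15.0 CPM (13.7 to 16.3) at P8, against 511 (504 to 518) in the E12.5 library, and had 0 UMI in adult endothelial barcodes, which by the exact interval allows up to 0.454 CPM. Sox2, near regions with input peaks, was at 0.553 CPM (0.333 to 0.863) in P8 endothelial against 78.6 (63.6 to 96.1) in other barcodes, and Ntm at 13.0 (11.8 to 14.3) against 52.9 (40.8 to 67.6). Gpm6a was at 2.85 CPM (2.31 to 3.47) against 176 (153 to 202). The regions nearest to these 3 genes were thus open in the endothelial lists while the genes' RNA was higher in barcodes of other cells, and the part of other nuclei in those lists was not tested.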

How the data were processed

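ATAC-seq peak lists of 66 mouse libraries (37 endothelial, 29 input) were used. Per the file headers, the authors called broad peaks with MACS2 2.1.2 in each library separately, with no control, and replicates were not pooled. Per the submitters' processing notes the build is mm10 and the reads went through Bowtie2, SAMtools 1.13 and Picard. The deposited lists give a fold (ratio of pileup to local background) and a −log10 q-value per peak, both the authors' own. The fold is not scaled between libraries, so it describes peaks within 1 list. Peaks sharing at least 1 base were merged over the 14 P6 endothelial lists, and any peak of another list that shared a base counted as present. A missing peak means that none was called in that list, not that the site was closed. Lists with similar numbers of tags could differ in peaks, since P6 brain endothelial 1 and 3 had 19.6 and 19.1 M (mega) tags and 27160 and 79903 peaks. RefSeq tables of GRCm38.p6 gave genes and promoter windows. Region sequences were not analysed here.

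Shares of regions per library were compared with exact 2-sided permutation tests over libraries, with Benjamini-Hochberg adjustment over 8 tests, in Python 3.11.15 with SciPy 1.17.1 and pandas 2.3.3, and the scripts were tested on simulated data. The members, the gene lists and the motifs were chosen with earlier results of these data known. Genes are named by rule, namely every barrier-list gene with a region within 50 kb, the 10 genes nearest to most regions with and without input peaks, 10 regions without and 3 with input peaks ranked by their lowest within-library percentile of fold. Gpr155 and some others of the 10 are given by name only, and a few items that the rule covers are not reported here. Lpar1, which falls outside the rule, and the choice among named genes of those whose promoters and single-cell levels are given, were made after the values were seen. The single-cell matrices hold deposited UMI counts, made by the authors with Cell Ranger per the submitters' processing notes. These counts were summed over barcodes, with no removal of doublets beyond the marker rule. The bulk RNA-seq tables and the E16.5 single-cell matrix, which could not be paired with gene names here, were not used. Alternatives included a stricter peak threshold (−log10 q of at least 5), equal numbers of top peaks, other overlaps, a replicate block and leaving out each library. Where RNA of a gene is low in a set of barcodes, fewer cells of a type and less RNA per cell cannot be told apart.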

Additional observations from a re-analysis of the deposited data

Results flagged for a closer look

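E12 heart endothelial 3 had a peak in 3.42% of the 5007 regions, against 33.9, 34.4 and 38.8% in the other E12 heart endothelial libraries. Its gap to the nearest of them was 0.860 of the group's range, above Dixon's critical value of 0.829 for 4 samples, which chance exceeds in about 1 of 20 groups. It also had the fewest tags (10.1 M (mega)) and the fewest peaks (39096) of the E12 endothelial lists, and without it the other libraries still lay below the E12 brain libraries.

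In brain endothelium, the share of regions without an input peak minus the share with one was 18.1 percentage points on average at E12, positive in all 3 libraries, and -13.6 at adult age, negative in both. The difference between these ages was not tested.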

How the results depend on the processing

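The number of regions was 1580 (529 without an input peak) with the stricter peak threshold, 1021 (346) with equal numbers of top peaks per list and 824 (236) when all 3 libraries of both organs were required. Leaving out each library in turn gave 986 to 5436 regions and 303 to 1077 without an input peak. The low ends came without P6 brain endothelial 3 (986 and 303) and P6 brain endothelial 2 (1010 and 324), because the sparse list of P6 brain endothelial 1 must then hold the peak. The E12 difference, as a log2 share relative to all merged regions, was 0.85 and lost the call (p = 0.103, exact permutation test). The adult input difference ranged from 15.0 to 49.0 percentage points when each library was left out, and missed the threshold without adult brain input 1 (27.0, p = 0.0556, exact) and without adult retina input 2 (29.5, p = 0.0556, exact). With organ means as the units, an alternative added after seeing the data, the adult differences were 29.6 (share) and 16.2 (share without an input peak). Those of the inputs were 38.7 (P6) and 38.9 (adult). Each of these had p = 0.0667, the smallest that 15 splits allow by exact permutation. The adult difference between regions without and with an input peak was -16.6. It is not read as a contrast of organs, since coverage near 0 in the other organs leaves no room for a difference. Organ means were not used for E12, where brain alone stood against heart and trunk. Of the other settings 290 kept direction and side of the threshold or stayed within the set margin, and none reversed a direction.

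The replicate numbers were also used as a block. Libraries of the same number did not deviate together (correlations from -0.129 to 0.0723 over 15 adult pairs, 0 above 0.1), so the numbers do not pair the adult libraries. E12 and input libraries were not checked for this. With the replicate block the adult difference was 29.6 percentage points (p = 0.00444, exact permutation within numbers) and the E12 one 29.3 (p = 0.037, exact), and all 8 tests kept their call. Among the 8 is the adult difference between regions without and with an input peak, which is not read as a contrast of organs. The motif count in windows around region midpoints was not run.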
